A study of Mus musculus with 13 samples.

Results

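The histone mark H3K4me3 was examined in mouse hippocampus at 9 genes that mark microglia, the resident macrophages of the brain. They are Csf1r, Cx3cr1, P2ry12, Ctss, Ctsz, Irf8, Tyrobp, Trem2 and Tmem119, and every region listed under one of these names was taken. A region was found for 6 of the 9 genes, 1 region each, which gives 6 of the 14006 distinct regions. H3K4me3 at Cx3cr1, Ctss and Tyrobp was not analysed here. In none of 6 comparisons between groups did any of the 6 regions pass limma's test (adjusted p under 0.05), and the region of Ctsz came nearest to it. Of all 14006 regions, limma called 0.00714% in 4 of these comparisons and 0% in the other 2.

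The mark, found at active promoters, was mapped by ChIP-seq in 13 hippocampal libraries of C57BL/6 mice. In the knockouts Mtr, the gene of methionine synthase, had lost its floxed exons 4 and 5 to a Cre recombinase under the Thy-1.2 promoter, which in transgenic mice is used mainly to reach neurons. The wild-type mice (genotype label MLML-WT) had received either vehicle, DMSO in PEG (n = 4), or SRT2104, an agonist of the deacetylase SIRT1 (n = 3). The knockouts (TC;MLML_MTR-KO) were either labelled as untreated (n = 2) or had received SRT2104 (n = 4). Gavage (50 mg/kg of SRT2104, or vehicle) began on day 15 and ended on day 36, with 3 doses a week and 9 in all. The untreated knockouts carry no vehicle label, so wherever they are compared, gavage cannot be told apart from genotype or compound. These 2 knockouts were female, whereas the 4 vehicle libraries were male, so sex and genotype cannot be told apart between these groups. The SRT2104 groups held both sexes.

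Microglia arise from yolk sac progenitors and depend on signals through the receptor CSF1R for their survival. They survey the tissue with motile processes, sense nucleotides released by injured cells, and engulf debris and synaptic material that is broken down in lysosomes. They are a minority of hippocampal cells, and a promoter active in them alone carries H3K4me3 in a small share of the nuclei in a bulk library. In such libraries, fewer cells of a type and less of the mark per cell cannot be told apart.

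Promoter sequences show how differently some of these genes are built around their start sites. They were taken by gene name, on another build than the regions, and were not placed on the regions. They need not lie within them. RefSeq promoter sequences on build GRCm38.p6, 250 bases before to 50 bases after the start, were read for 6 of the 9 genes, and Csf1r, Tmem119 and Tyrobp are named only. CG dinucleotides are in capitals, because H3K4me3 is known to be strongest at promoters rich in them. The sequences are written 5′ to 3′ on the strand of the gene, at chr2:174438990-174439289 (minus strand) for Ctsz, chr8:120736108-120736407 (plus) for the first promoter of Irf8, chr3:59262936-59263235 (minus) for P2ry12 and chr17:48346151-48346450 (plus) for Trem2.
Irf8: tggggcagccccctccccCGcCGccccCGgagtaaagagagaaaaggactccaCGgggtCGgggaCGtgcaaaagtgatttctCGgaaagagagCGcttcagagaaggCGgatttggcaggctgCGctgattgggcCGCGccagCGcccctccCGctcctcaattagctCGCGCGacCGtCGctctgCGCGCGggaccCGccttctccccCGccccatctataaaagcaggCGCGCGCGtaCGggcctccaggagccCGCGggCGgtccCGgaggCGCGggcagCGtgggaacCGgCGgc
Ctsz: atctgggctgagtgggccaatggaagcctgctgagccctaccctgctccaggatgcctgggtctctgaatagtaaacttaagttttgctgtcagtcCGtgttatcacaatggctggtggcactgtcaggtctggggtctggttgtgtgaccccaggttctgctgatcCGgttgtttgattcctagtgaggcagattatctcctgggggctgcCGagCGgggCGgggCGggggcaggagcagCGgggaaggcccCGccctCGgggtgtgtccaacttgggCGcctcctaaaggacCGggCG
P2ry12: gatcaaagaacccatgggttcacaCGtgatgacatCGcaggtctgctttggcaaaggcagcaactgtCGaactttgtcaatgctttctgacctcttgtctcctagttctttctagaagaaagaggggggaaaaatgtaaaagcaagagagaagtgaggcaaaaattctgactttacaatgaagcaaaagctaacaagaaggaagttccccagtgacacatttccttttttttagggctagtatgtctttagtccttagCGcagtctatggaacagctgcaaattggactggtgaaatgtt
Trem2: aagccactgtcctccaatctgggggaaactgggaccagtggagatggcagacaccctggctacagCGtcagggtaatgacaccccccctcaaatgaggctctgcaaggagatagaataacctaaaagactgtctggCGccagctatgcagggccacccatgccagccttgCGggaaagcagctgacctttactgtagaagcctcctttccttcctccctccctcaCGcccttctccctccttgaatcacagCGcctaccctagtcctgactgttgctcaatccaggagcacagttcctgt

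The first Irf8 promoter held 38 CG dinucleotides, at the 95.05th percentile of the 32851 promoters in the table, and 70% G or C. The Ctsz promoter held 12, at the 60.4th percentile. The P2ry12 promoter held 4 and the Trem2 promoter 5, at the 31.4th and 38.0th percentiles, against a median of 7 over all promoters. The 2 promoters with the most CG dinucleotides belonged to the 2 genes with the highest H3K4me3 among the 4 shown. Whether the bases counted lie in the marked regions was not tested. The letters GAGGAAG, the core bound by the myeloid transcription factor PU.1, were searched on both strands. They were found once in the Trem2 promoter and once in that of Ctss, in both cases on the strand opposite to the gene. They were not found in the windows of Ctsz, P2ry12 or Cx3cr1 or in either promoter of Irf8, and 13.6% of all promoters in the table hold them.

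The level of the mark differed widely between the 6 regions. Values are normalised read counts, that is reads in the region divided by a factor for the library, and levels are compared between genes per kilobase of region. Over the 13 libraries the mean level was 245 per kb at Irf8 and 240 (239.9) per kb at Ctsz, then 77.0 at Csf1r, 60.1 at Tmem119, 54.4 at P2ry12 and 41.8 at Trem2. In wild-type vehicle the order ran from Ctsz (253 ± 26.6 per kb, SD, n = 4) and Irf8 (243 ± 7.39) to Csf1r (74.4 ± 18.3), Tmem119 (66.1 ± 13.3), P2ry12 (49.5 ± 14.6) and Trem2 (44.4 ± 3.08). The vehicle libraries of Ctsz and Irf8 overlapped, as did those of each pair of neighbours among the other 4 genes, and no library overlapped between Irf8 and Csf1r. All 6 regions were in the lower part of the table, where the median level in wild-type vehicle over all regions was 363 per kb.

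The regions of Csf1r, Tmem119, Trem2 and P2ry12 were short. Their lengths were 269, 415, 553 and 783 bp, against a median of 1484 bp over all regions, and 1077 bp at Ctsz and 1213 bp at Irf8. In coordinates of build mm9, the Ctsz region (ENSMUSG00000016256) spanned 174263795 to 174264872 on chromosome 2 and overlapped its 2500 bp promoter window by 832 bp. The Irf8 region (ENSMUSG00000041515) spanned 123259656 to 123260869 on chromosome 8 and touched 2 promoter windows. The Trem2 region (ENSMUSG00000023992; chromosome 17, 48485956 to 48486509) overlapped its window by 269 bp, which is 48.6% of its length. The P2ry12 region (ENSMUSG00000036353) lay at 59066223 to 59067006 on chromosome 3 and the Tmem119 region (ENSMUSG00000054675) at 114249963 to 114250378 on chromosome 5. The Csf1r region (ENSMUSG00000024621) spanned 61265646 to 61265915 on chromosome 18 and overlapped its window by 79 bp, 29.4% of its length. Each region was listed with no other gene.

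**Figure D1:**
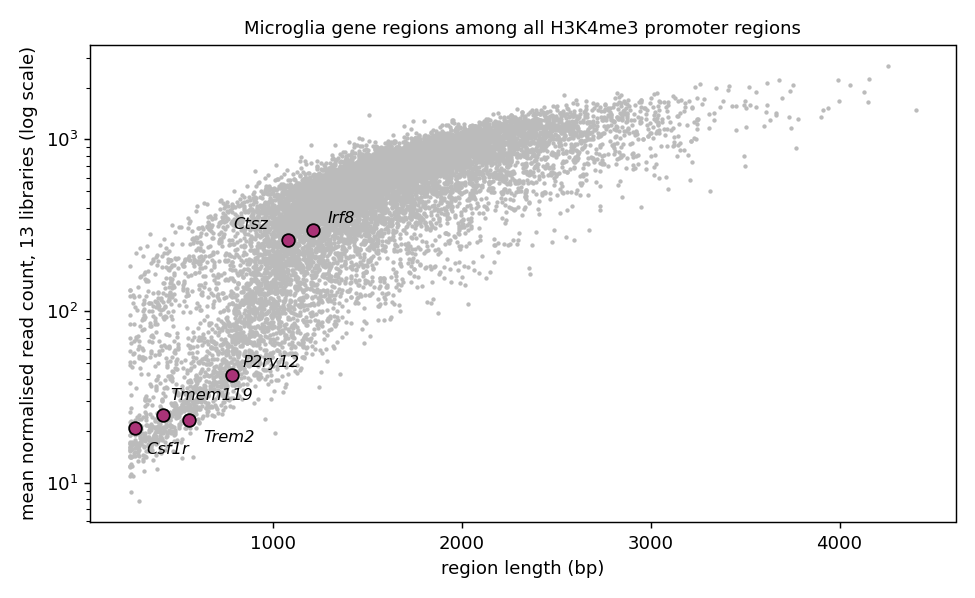
Mean normalised read count over 13 libraries (log scale) against region length in bp, for all 14006 regions (grey) and the 6 microglia gene regions (labelled). Csf1r, Tmem119, Trem2 and P2ry12 lie at the short, weak end, and Ctsz and Irf8 lie higher, still below the median length of 1484 bp.

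The read counts behind these values set their precision. The libraries held 3963196 to 9009109 reads in regions. A library had 139 to 333 reads at Ctsz and 149 to 380 at Irf8, but 28 to 55 at P2ry12, 12 to 31 at Csf1r, 13 to 32 at Trem2 and 8 to 43 at Tmem119. Counting alone gives an SD of about 6.16% at Ctsz and 5.73% at Irf8, and of 15.3% at P2ry12, 19.6% at Tmem119, 20.6% at Trem2 and 21.7% at Csf1r. The spread within groups, as chi-square per degree of freedom against counting error, was 0.658 at Csf1r and 0.656 at Trem2, 1.14 at Irf8, 1.51 at Ctsz and 1.78 at P2ry12, around a median of 1.39 over all regions. Tmem119 was more variable, at 2.92. Reads are not independent molecules, so these figures cover counting error only.

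Wild-type vehicle replicate 3 stood apart from its group over the whole table. On the first principal component of the autosomal regions, which held 27.2% of the variance, it scored 17.2, beside 12.2 and 21.6 for the untreated knockouts and -9.27 to -0.720 for the other 10 libraries. Differences from vehicle that its removal moved by over 1.5 times, or across the threshold, are given with and without it.

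Irf8 encodes a transcription factor that microglia need for their development. Its values were 282, 300.5, 301 and 298 in wild-type vehicle, 269, 322 and 324 in wild-type SRT2104, 269 and 308 in untreated knockouts, and 298, 292, 299.6 and 293 in treated knockouts. The groups overlapped throughout. The difference between untreated knockouts and wild-type vehicle was -0.04 on the log2(value + 1) scale (95% interval -0.22 to 0.15), with a limma adjusted p of 0.933. It was 0.0602 without untreated knockout replicate 1 and -0.13 without replicate 2.

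Csf1r encodes the receptor for the survival factors CSF1 and IL-34. Its values were 26.9, 19.5, 15.3 and 18.5 in wild-type vehicle, 21.7, 23.8 and 23.9 in wild-type SRT2104, 17.0 and 13.4 in untreated knockouts, and 21.0, 24.7, 19.3 and 24.4 in treated knockouts. The untreated knockouts lay at the low end, below every treated knockout, and overlapped 1 vehicle library, replicate 3 (15.3), the next lowest being 18.5. The log2 difference of treated from untreated knockouts was 0.53 (95% interval -0.09 to 1.14; limma adjusted p = 0.461), and that of untreated knockouts from vehicle was -0.36 (-0.97 to 0.26; limma adjusted p = 0.777). The latter was -0.47 without vehicle replicate 3 (limma adjusted p = 0.486), -0.21 with vehicle replicate 1 left out and -0.20 when untreated knockout replicate 2 was. In wild types the difference of SRT2104 from vehicle was 0.23 (limma adjusted p = 0.677), and 0.11 without vehicle replicate 3 or 0.37 without vehicle replicate 1.

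P2ry12 encodes the ADP receptor with which microglia sense released nucleotides, and it is lost on activation. Its values were 37.3, 53.0, 25.1 and 39.6 in wild-type vehicle, 63.2, 45.3 and 46.9 in wild-type SRT2104, 40.6 and 41.2 in untreated knockouts, and 37.1, 43.6, 42.1 and 38.5 in treated knockouts. Wild-type SRT2104 replicate 1 was the highest of the 13 and came from the library with the fewest reads, and every treated knockout lay below every wild-type SRT2104 library. The log2 difference of wild-type SRT2104 from vehicle was 0.44 (95% interval -0.01 to 0.89; limma adjusted p = 0.378), and that of treated knockouts from wild-type SRT2104 was -0.34 (limma adjusted p = 0.785). Single libraries weighed on both: the first was 0.25 without vehicle replicate 3 (limma adjusted p = 0.597) and 0.29 without wild-type SRT2104 replicate 1, and the second was -0.19 without that SRT2104 library. Untreated knockouts differed from vehicle by 0.12 (-0.39 to 0.64), and the difference between the SRT2104 contrasts of the genotypes was -0.46 (limma adjusted p = 0.821). Without vehicle replicate 3 these were -0.0633 and -0.28, and without vehicle replicate 2 the first was 0.29.

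Trem2 encodes a lipid-sensing receptor that signals through the adaptor TYROBP. Its values were 22.6, 25.9, 26.0 and 23.7 in wild-type vehicle, 23.5, 27.4 and 20.5 in wild-type SRT2104, 17.95 and 24.2 in untreated knockouts, and 22.3, 20.6, 28.0 and 17.8 in treated knockouts. All groups overlapped. The log2 difference of untreated knockouts from vehicle was -0.23 (95% interval -0.81 to 0.36; limma adjusted p = 0.861). It was -0.0207 without untreated knockout replicate 1 and -0.43 without replicate 2.

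Tmem119 encodes a membrane protein used to tell microglia from other macrophages. Its values were 31.2, 27.0, 19.7 and 31.7 in wild-type vehicle, 14.4, 31.0 and 22.2 in wild-type SRT2104, 21.7 and 38.5 in untreated knockouts, and 19.8, 14.8, 34.2 and 17.8 in treated knockouts. High and low libraries occurred in every group. The log2 difference of treated from untreated knockouts was -0.47 (95% interval -1.20 to 0.25; limma adjusted p = 0.549), that of wild-type SRT2104 from vehicle -0.31 (limma adjusted p = 0.621) and that of untreated knockouts from vehicle 0.10 (-0.62 to 0.82). Each turned on single libraries. Leaving out untreated knockout replicate 1 or 2 gave -0.87 or -0.0733 for the first and 0.50 or -0.30 for the last, which was -0.0447 without vehicle replicate 3 and 0.17 with either vehicle replicate 1 or 4 left out. Leaving out wild-type SRT2104 replicate 1 or 2 gave -0.0391 or -0.57 for the second.

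**Figure D2:**
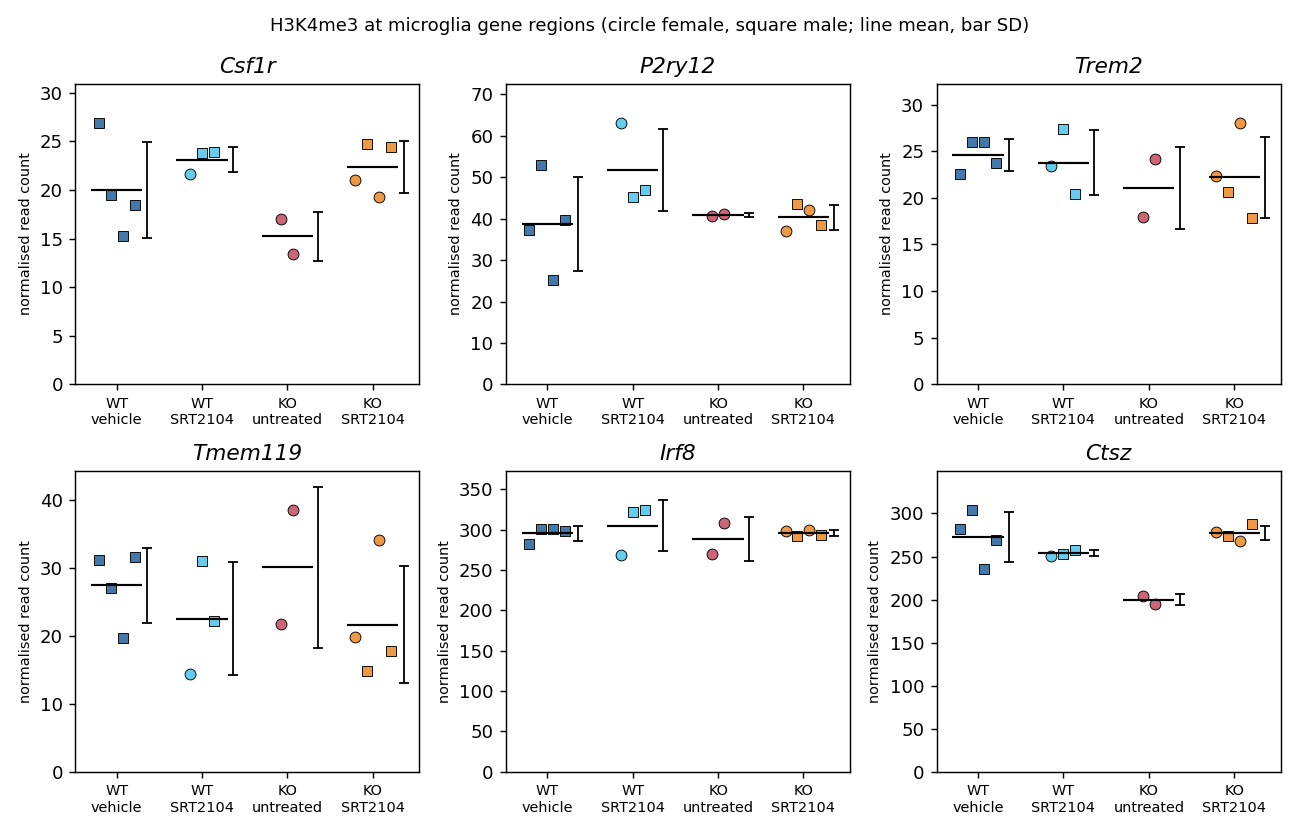
Normalised read count at each of the 6 microglia gene regions in the 13 libraries, by group (circles female, squares male; line, group mean; bar, SD). At Ctsz both untreated knockouts (195 and 204) lie below every other library, and at the other 5 genes no group stands apart from all others. Of all regions, 4.29% were lower in both untreated knockouts than in every vehicle library. The share lower than in all other libraries was not counted.

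Ctsz encodes cathepsin Z, a lysosomal cysteine protease abundant in microglia. Its values were 282, 304, 235 and 269 in wild-type vehicle, 251, 253 and 257 in wild-type SRT2104, 204 and 195 in untreated knockouts, and 279, 274, 268 and 288 in treated knockouts. Both untreated knockouts lay below all 11 other libraries, and treated knockouts lay within the range of wild-type vehicle. Of all regions, 4.29% were lower in both untreated knockouts than in every vehicle library, and 6.19% lower than in every treated knockout. The share below all 11 was not counted. The log2 difference of untreated knockouts from vehicle was -0.44 (SE 0.10, 95% interval -0.64 to -0.24), with an unadjusted p of 0.000114 and a limma adjusted p of 0.145. The authors' deposited table gives a log2 fold of -0.45 for knockout against wild type at Ctsz, with p = 0.000234 and an adjusted p of 0.0986.

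The comparison of treated with untreated knockouts shares the 2 untreated knockouts with the one before it. At Ctsz the log2 difference there was 0.47 (95% interval 0.27 to 0.67), with a limma adjusted p of 0.0761. Wild-type SRT2104 differed from vehicle by -0.10 (limma adjusted p = 0.574), by -0.17 without vehicle replicate 3 and by -0.0430 without vehicle replicate 2, and the SRT2104 contrasts of the genotypes differed by 0.57 (95% interval 0.30 to 0.83; limma adjusted p = 0.202). Treated knockouts differed from wild-type SRT2104 by 0.13 (limma adjusted p = 0.794) and from wild-type vehicle by 0.03 (limma adjusted p = 0.9996), or by -0.0384 without vehicle replicate 3.

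Within females, Ctsz was 195 to 204 in untreated knockouts, 268 to 279 in treated knockouts and 251 in the wild-type SRT2104 library. Within males it was 253 to 257 in wild-type SRT2104, 235 to 304 in vehicle and 274 to 288 in treated knockouts. Females of the treated knockouts lay within the range of all males. With sex in the model the difference of untreated knockouts from vehicle was -0.41 (limma adjusted p = 0.778), and that of treated from untreated knockouts 0.45 (limma adjusted p = 0.1402). Only the SRT2104 groups held both sexes, so the sex term rests on them. The model assumes the same sex difference in mice without SRT2104.

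The lowest vehicle value at Ctsz was that of replicate 3, which also scored near the untreated knockouts on the first principal component. Its removal widens the difference from vehicle by itself, so the passes without it add no separate support. Without replicate 3 the log2 difference of untreated knockouts from vehicle was -0.51 (limma adjusted p = 0.00175). Then 4.03% of all regions passed, against 0.00714% with it kept. The difference of treated from untreated knockouts was unaltered at 0.47, with a limma adjusted p of 0.00626 and 1.46% of regions passing, and the difference between the genotypes' SRT2104 contrasts was 0.64 (limma adjusted p = 0.00444), with 1.94% passing. With DESeq2 on the recovered reads, Ctsz also passed in the first of these (-0.48, adjusted p = 0.0386, 0.178% of regions passing) and in the second (0.52, adjusted p = 0.0139, 0.207%). With the fit restricted to the knockouts, the second passed at an adjusted p of 0.00148, as did 2.61% of regions. With sex in the model and replicate 3 left out, a setting chosen after seeing the data, Ctsz passed in the second (0.45, limma adjusted p = 0.0161, 1.43% of regions passing) and in the difference between SRT2104 contrasts (0.61, limma adjusted p = 0.0250, 0.992%), but not in the first (-0.48, limma adjusted p = 0.0519). Over 26 alternatives the first difference ranged from -0.51 to -0.39 and passed in 2, and the second ranged from 0.44 to 0.52 and passed in 4.

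**Figure D3:**
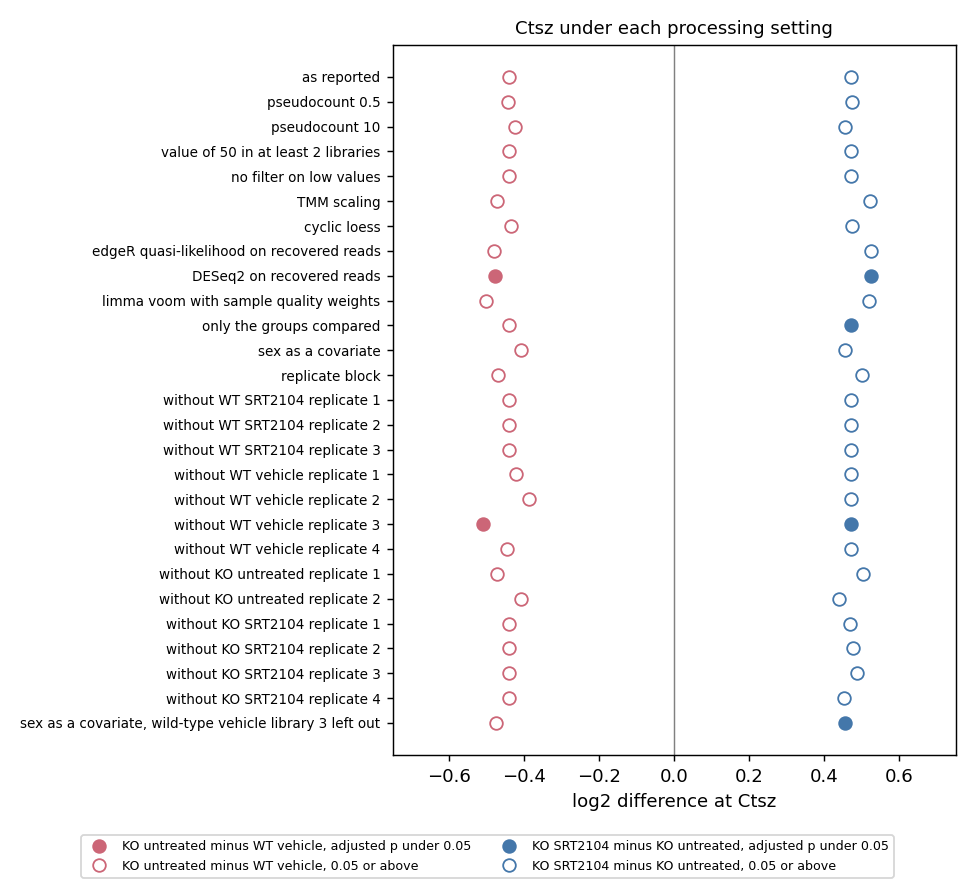
Log2 difference at Ctsz under each processing setting, for untreated knockout minus wild-type vehicle (red) and treated minus untreated knockout (blue). Filled points have an adjusted p under 0.05, and the sizes stay between -0.51 and -0.39 and between 0.44 and 0.52.

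The 6 microglia gene regions were then set beside all regions. With limma, 0 of 6 passed an adjusted p of 0.05 in any comparison, and 1 of 6, Ctsz, had an unadjusted p under 0.05 in untreated knockouts against vehicle, in treated against untreated knockouts and in the difference between SRT2104 contrasts. Of all 14006 regions, 1280, 1755 and 1103 had an unadjusted p under 0.05 there, in that order. Over all regions limma called 0.00714% in untreated knockouts against vehicle, and the same share in wild-type SRT2104 against vehicle, treated knockouts against wild-type SRT2104 and treated knockouts against vehicle. It called 0% in treated against untreated knockouts, where edgeR called 0 and DESeq2 29, and 0% for the difference between SRT2104 contrasts, where edgeR called 0 and DESeq2 13. The median log2 difference of the 6 was -0.13 in untreated knockouts against vehicle (2 above 0 and 4 below), beside 0.03 over all regions. It was 0.05 in treated against untreated knockouts (4 above and 2 below), beside -0.05 over all regions.

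Some groups did not overlap. Ctsz alone among the 6 was lower in every untreated knockout than in every vehicle library, which held for 4.29% of all regions. Ctsz and Csf1r were higher in every treated than in every untreated knockout, which held for 6.19% of regions. Against wild-type SRT2104, treated knockouts were higher throughout at Ctsz, as at 5.09% of regions, and lower throughout at P2ry12, as at 1.71%.

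**Figure D4:**
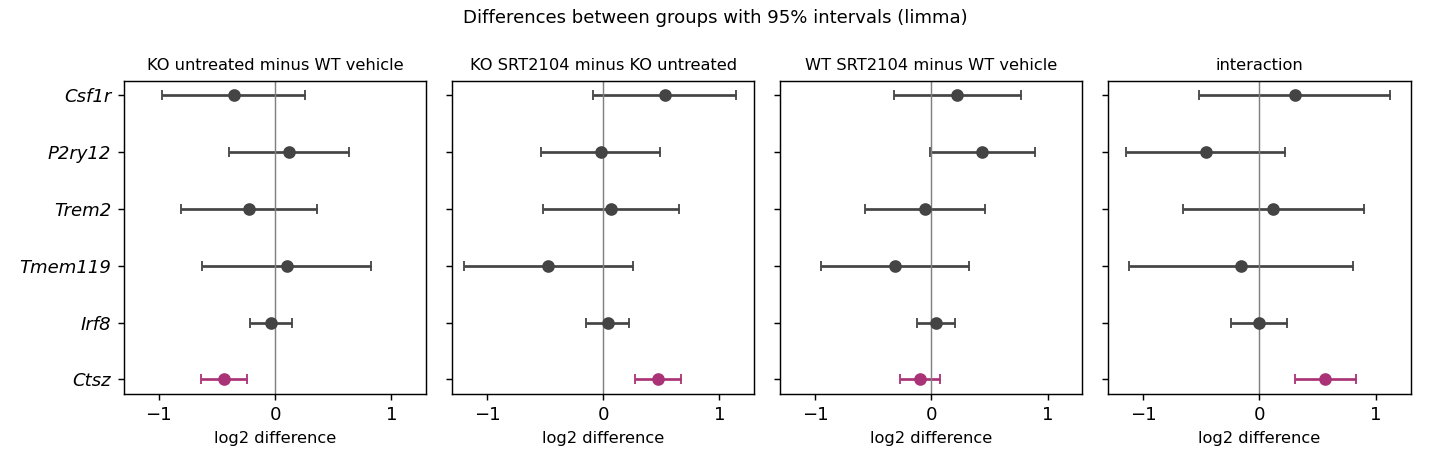
Log2 differences with 95% intervals (limma) at the 6 microglia gene regions in 4 comparisons. The intervals are not adjusted for the number of regions. Those of Ctsz leave out 0 in 3 of the panels (limma adjusted p of 0.145, 0.0761 and 0.202), and those of the other 5 genes include 0 throughout.

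Other genes of these cells gave no count beyond this. Of 43 further microglia genes, 24 had a region (26 regions in all), and none passed in any comparison. In untreated knockouts against vehicle 13 of the 26 lay above 0 and 13 below, with a median log2 difference of 0.00. The smallest p in each direction belonged to Coro1a, which binds actin in leukocytes (0.21, limma adjusted p = 0.474), and Rgs10, a regulator of G protein signalling (-0.20, limma adjusted p = 0.443). In wild-type SRT2104 against vehicle C1qa, a subunit of complement C1q, had 33.4 ± 12.5 against 21.0 ± 4.601 (0.60, limma adjusted p = 0.348), and Unc93b1, which carries Toll-like receptors to endosomes, had -0.25 (limma adjusted p = 0.336).

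Ligands and partners of the receptors were measured in full, with regions for 6 of 6 genes and none past the test. Cx3cl1, the neuronal ligand of CX3CR1, had 858 ± 10.0 in untreated knockouts and 759 ± 87.0 in vehicle (0.18, limma adjusted p = 0.432). Il34, a ligand of CSF1R, differed by 0.46 (limma adjusted p = 0.670). Of 13 genes of activated microglia 6 had a region, and none passed.

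Other genes of the lysosomal protease system gave no call. Of 12 cathepsin and cystatin genes 10 had a region, none passed, and 9 of the 10 lay above 0 in untreated knockouts against vehicle. Their median log2 difference was 0.04, beside 0.03 over all regions, of which 34.6% lay below 0. Ctsd, which encodes the aspartic protease cathepsin D, had 781 ± 35.8 in untreated knockouts and 667 ± 29.9 in vehicle (0.23, limma adjusted p = 0.204). Cst3, which encodes the protease inhibitor cystatin C, had 1006 ± 36.0 and 873 ± 53.7 (0.21, limma adjusted p = 0.319).

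Differences at markers of other cells stood beside that at Ctsz, and their counts are read against the 34.6% of all regions below 0. In untreated knockouts against vehicle, 10 of 10 astrocyte regions lay above 0 (median log2 difference 0.22), with summed values of 3552 to 3581 in untreated knockouts and 3053 to 3311 in vehicle. Of 8 vascular regions 6 lay above 0 (median 0.25; sums of 1507 to 1734 and 1301 to 1477), and of 12 neuronal regions 10 did (0.18; 6293 to 6582 and 5218 to 6611). Of 10 oligodendrocyte regions 8 lay below 0 (-0.12; 2482 to 3140 and 2557 to 3228), and of 5 choroid plexus and ependymal regions 4 did (-0.35; 914 to 975 and 967 to 1229). In treated against untreated knockouts, where 71.4% of all regions lay below 0, the same lists had 10 of 10 astrocyte regions below 0 (-0.18; sums of 3049 to 3237 in treated knockouts), 7 of 8 vascular (-0.26; 1240 to 1456) and 9 of 12 neuronal (-0.16; 5842 to 6408). Above 0 were 7 of 10 oligodendrocyte regions (0.06; 2901 to 3085) and 4 of 5 choroid plexus and ependymal regions (0.30; 1039 to 1241). None of these regions passed. In untreated knockouts and vehicle, the 6 microglia gene regions summed to 571 to 620.2 and 622 to 729.5, and the 26 further microglia regions to 8172 to 8504 and 8113 to 8487. Of the 6, only Ctsz was itself apart between these groups (195 to 204 and 235 to 304), and sums without it were not taken. Strong regions weigh most in such sums: among the 26, Tgfbr1 had a mean of 938 in vehicle and C1qa 21.0. No region was found for any of 14 genes of border macrophages and blood myeloid cells or 9 of lymphocytes, and 1 of 5 erythroid genes had one. The part of these other markers in the Ctsz results was not tested.

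The 5 regions outside the 6 that followed their mean most closely over the 13 libraries, a description chosen from the whole table, were those of Slc12a7 (Pearson r = 0.924), Galr2 (0.915), Hsd11b2 (0.869), Ell3 (0.867) and Mansc1 (0.864). All share the same libraries and their scaling. Each of the 6 counted alike in the mean on the log2 scale, including those with few reads and wide counting error. How high such correlations run from counting error alone was not tested.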

How the data were processed

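H3K4me3 ChIP-seq signal was deposited as 1 table of regions by library. The build was mm9, and the tools listed, with neither version nor role, were DESeq2, MACS2, bedtools, SAMtools and Bowtie2, per the submitters' processing notes. How regions were called, and against which input, is not given in the sources used here. The deposited signal is reads scaled by a factor for each library: all values (100%) were whole multiples of 1 step, within 0.001 reads, so whole reads were recovered. Regions are listed per 2500 bp promoter window, and 17212 lines with 14523 gene names were reduced to 14006 distinct regions. For knockout against wild type the authors deposited log2 fold changes with p-values. Sex comes from a letter in the deposited column names, and 5 libraries were female and 8 male. Whether libraries came from separate mice is not in the labels, so a p-value reflects only how much these 13 libraries vary.

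Because the values are scaled, the test was limma's moderated test (trend, robust, two-sided) on log2(value + 1), over 13 libraries with 1 coefficient per group, adjusted by Benjamini-Hochberg over all regions at 0.05. This scale understates the change of low regions. A minimum value of 10 was required in at least 2 libraries. DESeq2, edgeR (quasi-likelihood) and limma voom on the recovered reads, sex as a covariate, other scalings and filters and leaving out each library, were alternatives. The test was checked on simulated reads with the same added spread at every region and no library standing apart, unlike these data. All 9 genes were named. From the other lists, genes past the threshold were to be named and otherwise those with the smallest p per direction, of which some are given here, and the 5 regions of most similar pattern were named. The genes and lists were chosen with earlier results of these data known. Software comprised Python 3.11.15, pandas 2.3.3, matplotlib 3.10.9, R 4.3.3, DESeq2 1.42.0, edgeR 4.0.16 and limma 3.58.1.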

Additional observations from a re-analysis of the deposited data

Results flagged for a closer look

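Irf8 in wild-type vehicle replicate 1 was 281.99, apart from the 300.5, 301 and 298 of the other 3 vehicle libraries by more than Dixon's 95% critical value allows for a group of 4. Of 12 groups tested over the 6 genes, 1 was past the critical value, and chance flags about 1 in 20.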

How the results depend on the processing

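The 18 differences given in the text were recomputed 459 times: 439 kept their direction and side of the threshold, 12 changed sign and 8 newly passed. The 8 were all Ctsz. Of the 6 genes, 1 passed in untreated knockouts against vehicle with DESeq2, and 0 to 1 when each library was left out. In treated against untreated knockouts 1 passed with DESeq2, with the fit restricted to the groups compared, and with sex in the model and vehicle replicate 3 left out, and 0 to 1 when each library was left out. In the difference between SRT2104 contrasts 1 passed with sex in the model and vehicle replicate 3 left out, and 0 to 1 when each library was left out. That combined setting was chosen after seeing the data. Sign changes were at Irf8 in untreated knockouts against vehicle (0.0503 with sex in the model, 0.0590 with vehicle replicate 3 also left out, -0.132 to 0.0602 leaving out each library), P2ry12 under the same settings (-0.0254, -0.212 and -0.0633 to 0.285) and Tmem119 (-0.0332 with voom, -0.106 with sex and without vehicle replicate 3, and -0.299 to 0.497 leaving out each library). The difference of treated knockouts from vehicle at Ctsz was -0.0216 with sex in the model and vehicle replicate 3 left out, and -0.0384 to 0.0841 leaving out each library. The cause was not tested. Over all settings the smallest adjusted p of a gene other than Ctsz was 0.306. Same-numbered libraries correlated by -0.293 to 0.193 and differently numbered ones by -0.495 to 0.41. Correlations of the untreated knockouts mirrored each other (-0.144 and 0.144 with wild-type SRT2104 replicate 1), so they cannot show pairing there. Whether the numbers pair the libraries was therefore not settled. With a replicate block Ctsz had -0.47 (limma adjusted p = 0.239) in untreated knockouts against vehicle, 0.50 (0.184) in treated against untreated knockouts and 0.59 (0.594) in the difference between SRT2104 contrasts, and 0 of 6 genes passed. At 8 to 55 reads a library, changes within the counting error of Csf1r, P2ry12, Trem2 and Tmem119 were not detectable.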
